A study of Mus musculus with 3 samples.

Results

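The cholesterol and fatty acid synthesis genes examined here are 33 named genes: 7 enzymes of the mevalonate pathway, 11 enzymes from squalene to cholesterol, 5 regulators of the sterol response, 6 lipogenesis genes and 4 genes of sterol transport and storage. They were taken by symbol from a fixed list. That list was drawn up with earlier results of these data known, so shares of it are not blind to the values. Of the 33 genes, 31 had a probe set with a single gene symbol and were measured, among 19938 genes in all. The intensities of Acat2 and Soat1 are not analysed here.

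RNA came from sarcoma cells of mice that carry an EWS/ATF1 transgene switched on by doxycycline. EWS/ATF1 joins the RNA-binding protein EWSR1 to the CREB-family transcription factor ATF1, as in human clear cell sarcoma. There were 3 arrays in 3 groups, 1 array a group: a tumor resected from a mouse that had received doxycycline for 3 months, cultured tumor cells 24 h after exposure to 0.2 microg/ml doxycycline (called high doxycycline), and cultured tumor cells without it (0 microg/ml, called control). All groups carry the transgene and share a mixed C57/BL6, 129 and ICR background and a soft tissue sarcoma origin, per the labels. The descriptions of both culture arrays carry the same number and that of the tumor array another, and the labels do not say what the number counts. Nor do they give the promoter or cell type that drives the transgene, or whether the cultures are clones.

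The labels were checked against tissue genes before any comparison. The 12 macrophage markers had a summed intensity of 1456 on the array labelled tumor, 2503 on high doxycycline and 27515 on control. Summed intensities in the same order were 2784, 2201 and 48174 for 9 fibroblast and matrix markers, 1540, 1725 and 27511 for 10 skeletal muscle markers and 1072, 1171 and 9016 for 8 endothelial markers. Above the array's median on tumor, high doxycycline and control lay 1, 2 and 12 of the macrophage markers, 8, 7 and 9 of the fibroblast and matrix markers, 2, 3 and 10 of the muscle markers and 1, 1 and 7 of the endothelial markers. Summed tissue markers were thus brightest on control, labelled as cultured cells, and dimmer on the array labelled tumor, against both of these labels. The sums on high doxycycline, the other culture array, were far below those of control. Of 7 neural and neural crest markers (summed 25943, 18793 and 7941), Scg2, Snap25, Ngfr and Uchl1 were lowest on control and carried the sum. S100b differed little (4156, 4256 and 3574), Mitf had 1018, 1344 and 1281, and Sox10 was highest on control (200, 222 and 253). The arrays are therefore called by their labels throughout, and a difference is a difference between arrays, not an effect of doxycycline or of growth in the animal. In bulk RNA, fewer cells of a type and less RNA per cell cannot be told apart. With 1 array a group no difference could be tested, so no p-value is given.

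Mammalian cells build cholesterol from acetyl-CoA. The mevalonate pathway makes isoprenoid units, which are joined to squalene, closed to lanosterol and trimmed to cholesterol. Transcription of most of these enzymes is driven by the SREBP factors, which SCAP carries out of the endoplasmic reticulum when sterol is low and which INSIG proteins hold back when sterol is high. SREBP-1 also drives fatty acid synthesis and desaturation, while ABCA1 exports surplus cholesterol.

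Sterol enzymes were brighter on the arrays labelled high doxycycline and tumor than on the array labelled control, most of them by 2-fold or more. Pmvk and Fasn were not brighter on those arrays. For Mvk, Mvd, Srebf1 and Acaca the values on high doxycycline and control were exactly equal, from which no level is read. Values below are deposited intensities on a linear scale. Differences are in log2(intensity + 1), and a gene counts as bright in a comparison when the brighter array of the pair lies above its own median. All 31 measured genes were bright in each comparison.

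Among the mevalonate enzymes, Idi1 alone was brighter by 2-fold or more against control. Idi1, the isomerase that interconverts the isoprenoid building blocks, had intensities of 670 on the array labelled tumor, 956 on high doxycycline and 152 on control. It was low on control alone, with a log2 difference of 2.64 for high doxycycline minus control and 2.13 for tumor minus control. Its other probe set read 665, 955 and 102 in the same order, or 3.22 and 2.70 against control, so both probe sets gave the same direction. Fdps, the farnesyl diphosphate synthase, had 1390 on tumor, 2221 on high doxycycline and 1223 on control, or 0.86 for high doxycycline minus control. Hmgcs1, the HMG-CoA synthase that feeds the pathway, had 747, 751 and 735 in that order and so differed by at most 0.03. Mvk, the mevalonate kinase, had 820 on tumor and the identical value of 1144 on high doxycycline and control. Mvd, the decarboxylase that follows the kinases, had 425 on tumor and 474 on both other arrays. Pmvk, the phosphomevalonate kinase, ran the other way. Its intensity was 498 on tumor, 2091 on high doxycycline and 3117 on control, which made it the only mevalonate enzyme dimmer by 2-fold or more in any comparison.

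The sterol enzymes moved more evenly. Nsdhl, which removes a methyl carbon of the sterol ring, had 2097 on the array labelled tumor, 3084 on high doxycycline and 529 on control. Msmo1, the oxidase that acts on the same methyl groups, had 1044 on tumor, 1300 on high doxycycline and 252 on control. Cyp51, the lanosterol demethylase, had 439, 758 and 165 in that order. For all 3 genes control was lowest and high doxycycline highest. Sqle, the squalene epoxidase that is a rate-limiting step, had 805 on tumor, 1363 on high doxycycline and 324 on control. Tm7sf2, a sterol reductase, had 967, 1222 and 329, and Hsd17b7, the ketoreductase that works with Nsdhl, had 1524, 2135 and 688. The same order of arrays was seen for Lss, the lanosterol synthase, with 811 on tumor, 1161 on high doxycycline and 487 on control. The remaining enzymes were alike on tumor and high doxycycline. Fdft1, the squalene synthase, had 1794 on tumor, 1796 on high doxycycline and 817 on control, and its dimmer probe set 1428, 1428 and 777. Sc5d, the sterol desaturase, had 1035 on both tumor and high doxycycline and 379 on control. Dhcr7, which reduces a ring double bond late in the pathway, had 768, 779 and 424. Ebp, the sterol isomerase, was the exception among the 11, with 814 on tumor and 848 on both other arrays.

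**Figure D1:**
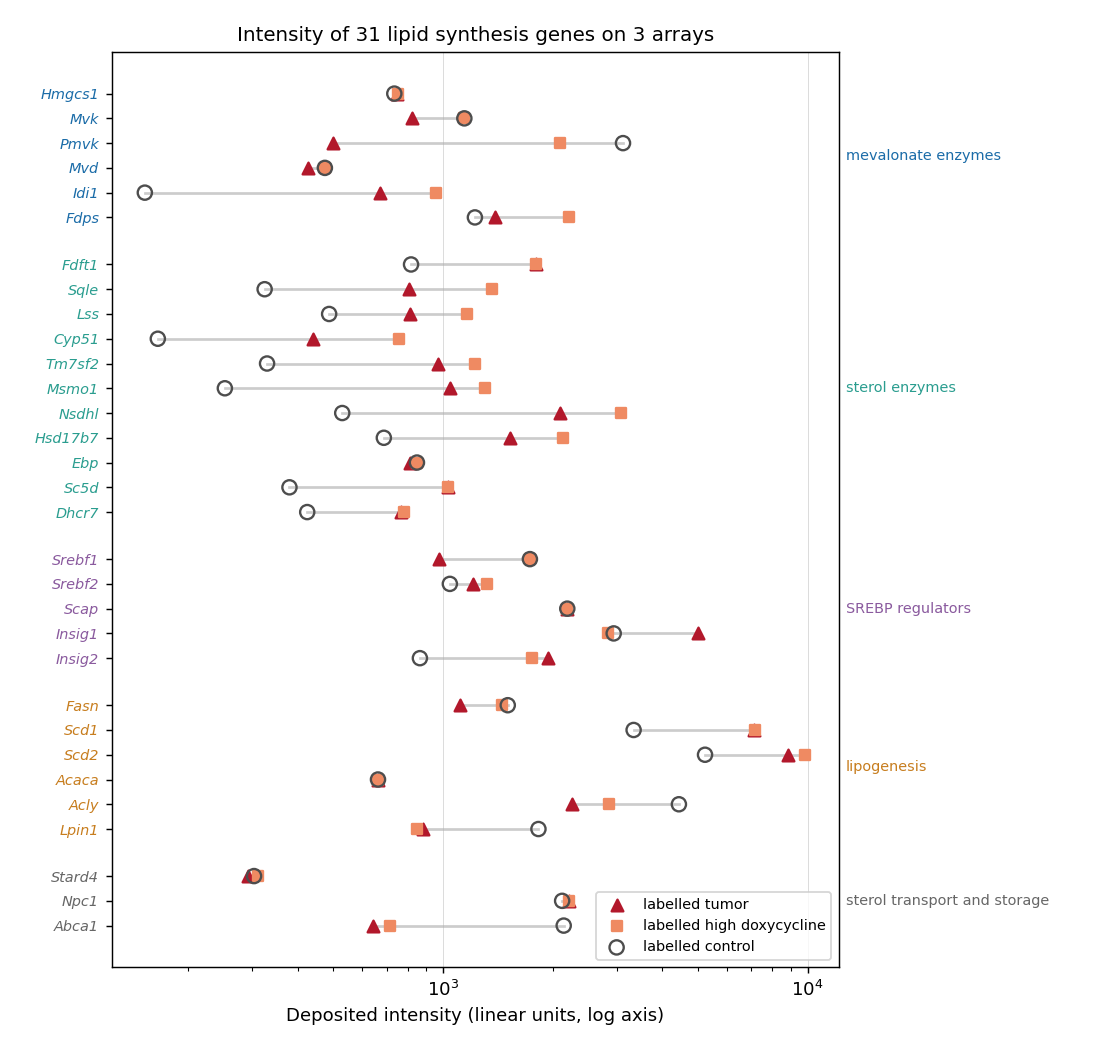
Deposited intensity (log axis) of the 31 measured genes on the arrays labelled tumor (triangles), high doxycycline (squares) and control (open circles), in rows by role; levels of different genes are not comparable. For 10 of the 11 sterol enzymes the control circle lies to the left of both other arrays, while Pmvk, Fasn, Acly, Lpin1 and Abca1 have it on the right.

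Against control, only Insig2 of the pathway's regulators differed by 2-fold or more. Srebf2, the SREBP gene of sterol synthesis, had 1208 on the array labelled tumor, 1324 on high doxycycline and 1044 on control. Srebf1, the SREBP gene linked to lipogenesis, had 977 on tumor and 1731 on both other arrays. Scap, the escort of the SREBPs, had 2192 on all 3 arrays. The INSIG genes, whose products retain SCAP, were unlike each other. Insig1, itself a classical SREBP target, had 5016 on tumor, 2834 on high doxycycline and 2939 on control and so was high on tumor alone. Insig2 had 1939 on tumor, 1759 on high doxycycline and 864 on control and so was low on control alone.

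Lipogenesis genes split by step. Acly, which makes cytosolic acetyl-CoA from citrate, had 2262 on the array labelled tumor, 2855 on high doxycycline and 4437 on control. Acaca, the acetyl-CoA carboxylase, had 663 on all 3 arrays, and its other probe set also had the same value on all 3 (236). Fasn, the fatty acid synthase, had 1114 on tumor, 1450 on high doxycycline and 1505 on control. No listed value of these 3 genes was higher on high doxycycline or tumor than on control. Of the stearoyl-CoA desaturases, Scd1 had 7137 on tumor, 7191 on high doxycycline and 3333 on control. Scd2 had 8822, 9870 and 5233 in that order. Lpin1, the phosphatidate phosphatase of glycerolipid synthesis, had 881 on tumor, 846 on high doxycycline and 1827 on control.

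Transport genes lay close to control or were dimmer. Npc1, the lysosomal cholesterol exporter, had 2213 on tumor and high doxycycline and 2122 on control. Stard4, a carrier of cholesterol in the cytosol, had 292 on tumor, 311 on high doxycycline and 303 on control. Abca1 had 642 on tumor, 715 on high doxycycline and 2143 on control. Macrophages are known for high ABCA1 and skeletal muscle for high LPIN1, and the macrophage and muscle marker sums given above were highest on the array labelled control as well; their part in the Abca1 and Lpin1 values was not tested. Adipocytes and hepatocytes also make much lipid. The summed intensity of 10 adipocyte markers was 3626 on tumor, 2359 on high doxycycline and 3857 on control, and 2, 2 and 5 of them lay above the array's median. Fabp4 (143, 87.6 and 847) and Lpl (98.0, 97.5 and 314) were highest on control, Plin4 on tumor (1333, 447 and 834), and the defining gene Adipoq was dim on each (56.3, 56.3 and 56.9). The part of adipocyte RNA in the lipogenesis values was not tested. That of 5 hepatocyte markers was 491, 491 and 556, with Alb at 51.6 on each array.

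In the comparison of high doxycycline with control, 12 of 31 genes (38.7%) were at least 2-fold brighter, against 17.4% of all 11955 bright genes. They were 10 of the 17 mevalonate and sterol enzymes (Idi1, Fdft1, Sqle, Lss, Cyp51, Tm7sf2, Msmo1, Nsdhl, Hsd17b7 and Sc5d) with Insig2 and Scd1. At least 2-fold dimmer were Abca1 (3.00-fold) and Lpin1 (2.16-fold), or 6.45% against 8.43% of all bright genes, so that share was not above the background. The median difference was 1.25 over the 17 enzymes, 1.63 over the 11 sterol enzymes and 0.02 over the 6 mevalonate enzymes, against 0.080 over all bright genes. Over the 6 lipogenesis genes it was -0.03, and over all 31 genes 0.34. Just past the 2-fold limit were Insig2 (1.02), Scd1 (1.11), Fdft1 (1.14, and 0.88 on its other probe set) and Lss (1.25). Downwards, Lpin1 (-1.11) was just past it. Just short of it were Scd2 (0.92), Dhcr7 (0.88) and Fdps (0.86), and downwards Acly (-0.64). Where a gene had several probe sets, their differences in this comparison lay apart by a median of 0.368 (666 genes), which these distances from the limit do not exceed.

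The comparison of tumor with control, which uses the same control array and is not independent of the one above, gave 11 of 31 genes (35.5%) at least 2-fold brighter, against 18.5% of 12041 bright genes. Lss, at 0.73, was the gene no longer past the limit. At least 2-fold dimmer were Pmvk (6.25-fold), Abca1 (3.34-fold) and Lpin1 (2.07-fold), or 9.68% against 10.1% of all bright genes. Of the genes past the limit, Scd1 (1.10), Fdft1 (1.13), Hsd17b7 (1.15), Insig2 (1.17), Sqle (1.31) and Lpin1 (-1.05) lay near it. Their distances from it did not exceed the median probe set disagreement of this comparison (0.384 over 675 genes). Medians were 1.13 over the 17 enzymes, 1.31 over the sterol enzymes and -0.07 over the mevalonate enzymes, with 0.21 over all 31 genes, against 0.072 over all bright genes. Quantile normalization left 7 genes brighter (Idi1, Sqle, Cyp51, Tm7sf2, Msmo1, Nsdhl and Sc5d) and 5 dimmer (Acly and Srebf1 in addition). Of all bright genes 16.2% were then brighter and 11.4% dimmer by 2-fold or more. The count of brighter genes in this comparison thus rests in part on the scale between arrays.

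**Figure D2:**
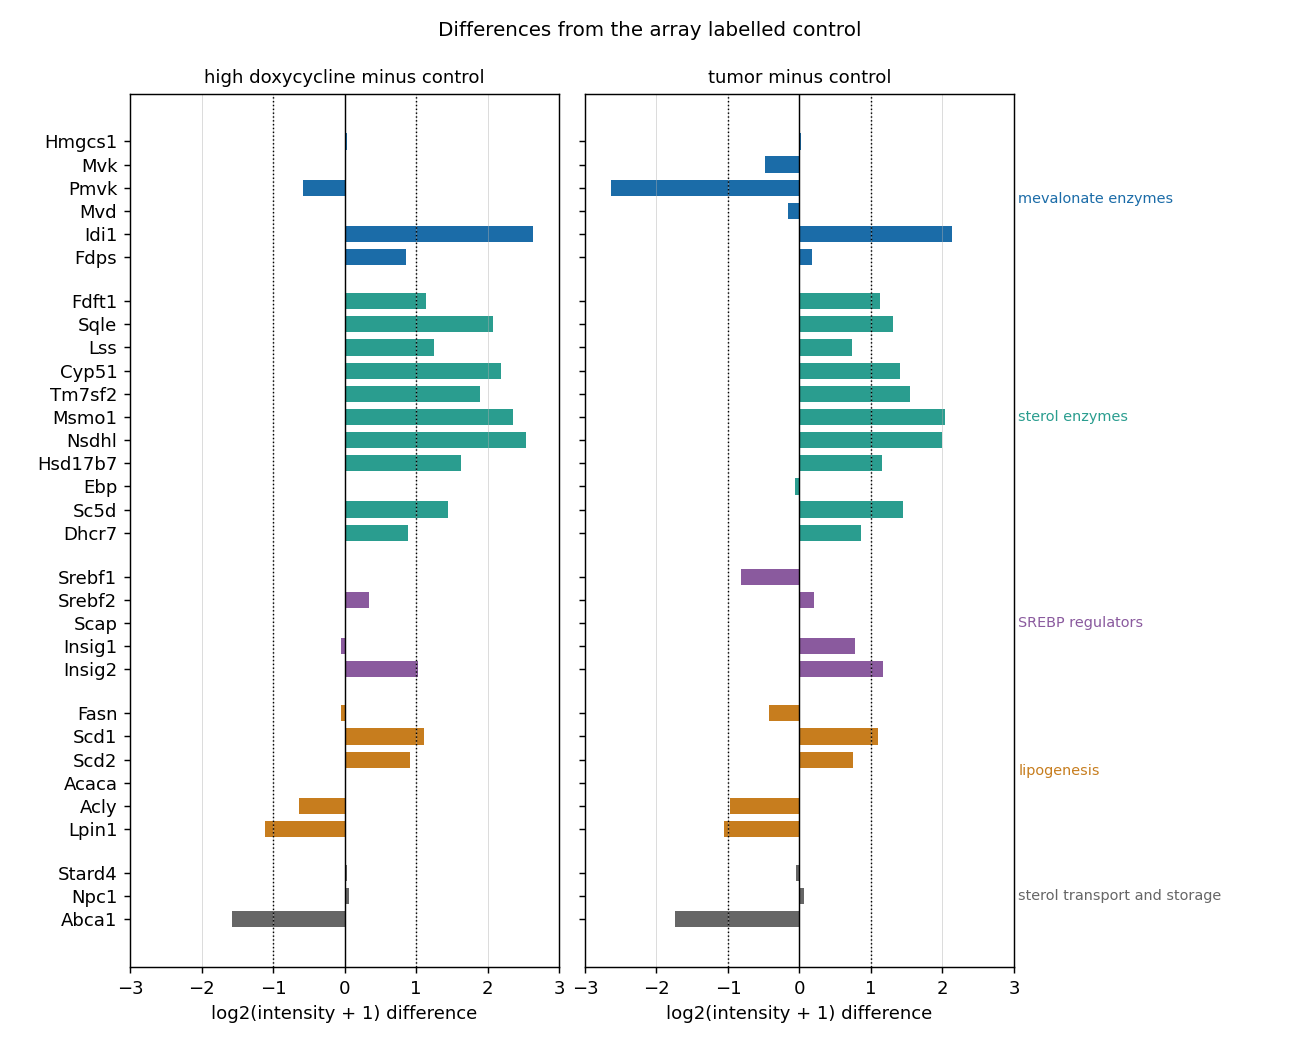
Difference in log2(intensity + 1) from the array labelled control for high doxycycline (left) and tumor (right), 1 bar a gene coloured by role, with dotted lines at 2-fold. Sterol enzymes other than Ebp extend to the right in both panels, Pmvk and Abca1 to the left; both panels share the control array.

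The arrays labelled tumor and high doxycycline were alike over all probe sets (Pearson r = 0.991 across probe sets of log2 values, which are not independent), and both were low in tissue markers. Between them only Pmvk differed by 2-fold or more. It was 4.19-fold dimmer on tumor, 1 of 31 genes (3.23%) against 1.93% of 11220 bright genes, and 0 of 31 were brighter by that margin against 1.58%. Smaller differences of the synthesis enzymes lay nearly all to the same side. Of the 17 mevalonate and sterol enzymes, 16 (94.1%) were dimmer on tumor by any amount, against 40.6% of all bright genes. None was brighter and Sc5d had the same value on both arrays. Exactly equal values lower that background share: of 11220 bright genes, 4560 were dimmer, 3708 brighter and 2952 (26.3%) equal. Dimmer by more than the median probe set disagreement of this comparison (0.055 over 650 genes) were 13 of 17 (76.5%), against 31.5% of all bright genes. This count was chosen after the values were seen. The median was -0.48 over the 17 enzymes and -0.16 over all 31 genes, against 0.000 over all bright genes.

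Pmvk (-2.07), Cyp51 (-0.79), Sqle (-0.76), Fdps (-0.68) and Nsdhl (-0.56) had the largest of these differences, and Hmgcs1 (-0.01), Dhcr7 (-0.02) and Fdft1 (1794 on tumor and 1796 on high doxycycline) the smallest. Srebf1 was dimmer on tumor as well (-0.82), whereas Insig1 was brighter (0.82). Lipogenesis genes had a median of -0.09. Proliferation markers were also lower on tumor: their summed intensity over 7 genes was 5130 on tumor, 10134 on high doxycycline and 6524 on control, and Mki67 had 90.2 on tumor, 285 on high doxycycline and 319 on control. Their part in the enzyme differences was not tested.

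**Figure D3:**
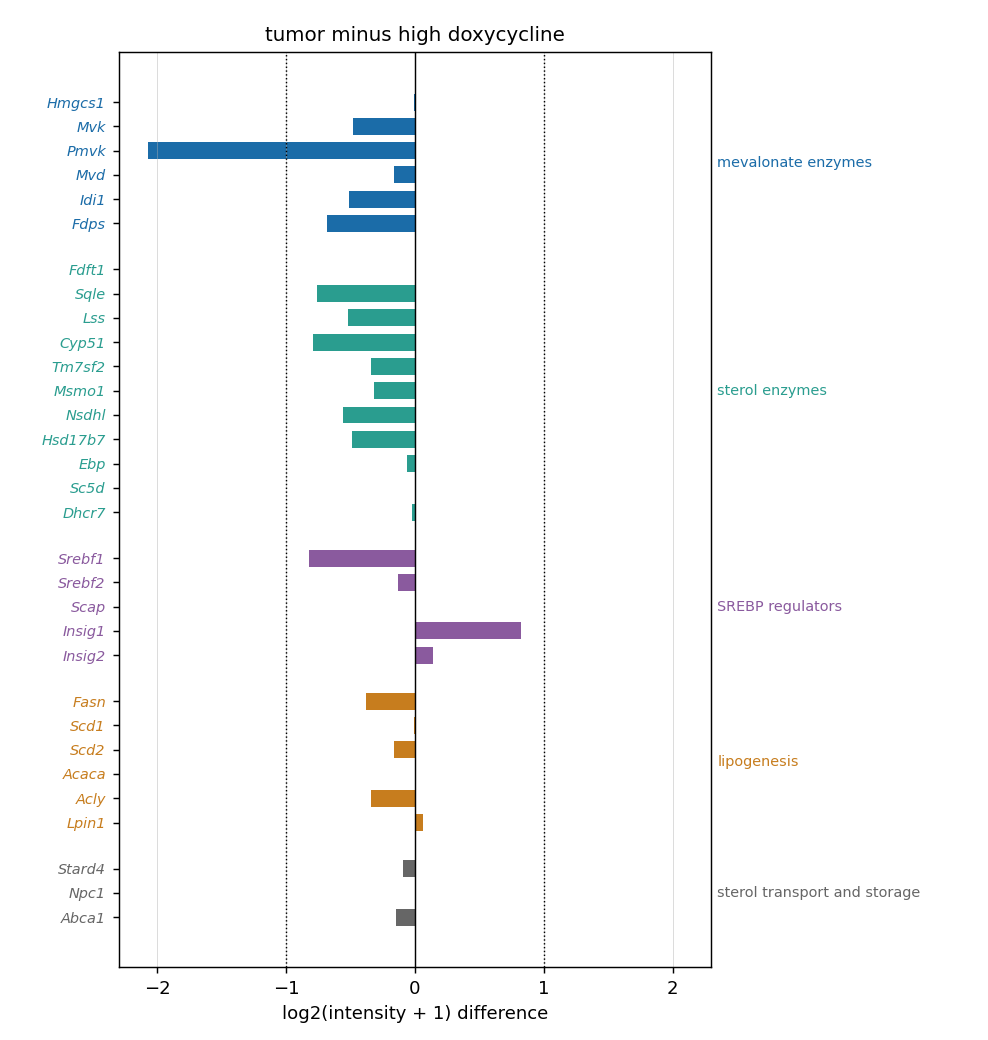
Difference in log2(intensity + 1) of the array labelled tumor minus the array labelled high doxycycline, 1 bar a gene coloured by role, with dotted lines at 2-fold. Bars of mevalonate and sterol enzymes point left or are at 0, Pmvk passes the 2-fold line at -2.07, and Insig1 (0.82) points right.

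Exactly equal values limit what a difference of 0 means. On high doxycycline and control, 6 of 31 genes (19.4%) had identical values, namely Mvk, Mvd, Ebp, Srebf1, Scap and Acaca, against 9.22% of bright genes. On tumor and high doxycycline, 4 of 31 (12.9%) did, namely Sc5d, Scap, Acaca and Npc1, against 26.3%. Scap and Acaca were identical on all 3 arrays. The labels do not say what made values equal, and such a 0 was not read as evidence of an equal RNA level. These zeros do enter the medians and counts above. For high doxycycline minus control, the medians of the mevalonate enzymes (0.02) and lipogenesis genes (-0.03) rest in part on them.

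Further genes of the pathway were counted from a list of 50, of which 40 were measured. At least 2-fold brighter on high doxycycline than on control were 8 of 36 bright genes (22.2%, against 17.4% of all bright genes), and 3 were dimmer (8.33% against 8.43%). On tumor against control 9 of 36 were brighter (25.0% against 18.5%) and 3 dimmer (8.33% against 10.1%), so these shares lay near the background. On tumor against high doxycycline the counts were 0 and 0 of 35, against 1.58% and 1.93%. Elovl6, a fatty acid elongase, had 2868 on tumor, 3062 on high doxycycline and 686 on control, the largest difference of the list upwards (2.16 and 2.06 against control). Ggps1, which makes geranylgeranyl diphosphate from the product of Fdps, had 1906, 1863 and 510 in that order. Mylip, a ubiquitin ligase that degrades lipoprotein receptors and is induced by sterol, had 374 on tumor, 325 on high doxycycline and 1776 on control. Abcg1, a cholesterol exporter that macrophages express like ABCA1, had 257 on tumor, 247 on high doxycycline and 903 on control. Both were high on the array that was also brightest in macrophage markers, whose part was not tested. Between tumor and high doxycycline the largest differences were those of Fads2, a fatty acid desaturase (1124 on tumor and 2072 on high doxycycline), and Tmem97, a sterol-responsive membrane protein (1722 and 3138), both dimmer on tumor. Acss2, an acetyl-CoA synthetase (1093 on tumor and 779 on high doxycycline), and Acacb, a mitochondrial acetyl-CoA carboxylase (408 and 298), had the largest differences upwards.

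Promoter sequences were compared because the sterol enzymes differed together while Hmgcs1 did not. Windows from 250 bases before to 50 after each annotated start (RefSeq, GRCm38.p6) were found for 26 of the 33 genes, in 34 windows. Of these, 18 belonged to 15 mevalonate and sterol enzymes, Acat2 included, since some genes had several starts. Fdft1, Fdps and Sqle had no window. The windows of Idi1 (chr13:8885356-8885655, plus strand), Nsdhl (chrX:72918271-72918570, plus strand) and Cyp51 (chr5:4104648-4104947, minus strand) show enzymes with large differences from control. The window of Hmgcs1 (chr13:119690101-119690400, plus strand) shows an enzyme with almost none, and that of Insig1 (chr5:28071162-28071461, plus strand) the regulator that was high on the array labelled tumor. Capitals mark CCAAT boxes, short CRE motifs, E-boxes and the sterol regulatory element core, on either strand.
Idi1: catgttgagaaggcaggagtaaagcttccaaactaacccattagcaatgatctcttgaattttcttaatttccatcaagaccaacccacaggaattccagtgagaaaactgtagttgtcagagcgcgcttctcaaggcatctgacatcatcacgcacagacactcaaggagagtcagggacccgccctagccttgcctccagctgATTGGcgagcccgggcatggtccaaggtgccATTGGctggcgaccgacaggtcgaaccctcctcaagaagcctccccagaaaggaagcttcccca
Nsdhl: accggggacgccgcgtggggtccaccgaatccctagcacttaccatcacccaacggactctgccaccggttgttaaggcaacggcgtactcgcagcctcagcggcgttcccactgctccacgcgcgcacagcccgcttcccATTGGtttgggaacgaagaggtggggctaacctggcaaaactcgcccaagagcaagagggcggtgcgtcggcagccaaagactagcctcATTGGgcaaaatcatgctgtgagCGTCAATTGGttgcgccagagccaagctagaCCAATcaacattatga
Cyp51: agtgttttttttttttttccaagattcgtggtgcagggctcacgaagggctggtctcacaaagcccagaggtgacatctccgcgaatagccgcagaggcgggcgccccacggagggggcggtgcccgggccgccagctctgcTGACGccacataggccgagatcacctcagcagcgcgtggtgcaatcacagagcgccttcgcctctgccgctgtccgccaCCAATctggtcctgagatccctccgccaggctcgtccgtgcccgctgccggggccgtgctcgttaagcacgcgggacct
Hmgcs1: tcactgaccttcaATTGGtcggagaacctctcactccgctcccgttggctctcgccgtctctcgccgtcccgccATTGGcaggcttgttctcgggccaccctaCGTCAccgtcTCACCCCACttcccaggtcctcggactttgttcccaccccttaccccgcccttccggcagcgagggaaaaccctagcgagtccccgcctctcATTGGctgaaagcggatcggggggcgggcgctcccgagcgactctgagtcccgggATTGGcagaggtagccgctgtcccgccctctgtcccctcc
Insig1: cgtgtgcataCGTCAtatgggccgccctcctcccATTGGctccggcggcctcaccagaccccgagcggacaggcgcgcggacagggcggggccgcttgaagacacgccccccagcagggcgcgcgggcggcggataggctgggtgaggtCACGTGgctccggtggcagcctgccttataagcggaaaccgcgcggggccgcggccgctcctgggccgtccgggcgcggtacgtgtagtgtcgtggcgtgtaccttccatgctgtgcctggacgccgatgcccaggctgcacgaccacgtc

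The core of the sterol regulatory element, the site of SREBP, was searched as TCACNCCAC on both strands. Among the 34 windows only that of Hmgcs1 held it, as TCACCCCAC on the plus strand beginning at position -137 from the start, against 1.24% of all 32851 promoter windows. Idi1, Nsdhl and Cyp51 had no match, which says only that these letters are not in these windows. The CCAAT box (CCAAT), bound by NF-Y, a partner of SREBP, was in 14 of 18 enzyme windows (77.8%), against 37.4% of all windows. These enzyme shares pool enzymes that differed from control with those that did not. Windows of Hmgcs1, Mvk, Mvd, Ebp and Pmvk, none of them 2-fold brighter against control, held a CCAAT box as well. Of these genes, Mvk, Mvd and Ebp had exactly equal values on high doxycycline and control. The presence of a CCAAT box therefore does not set the enzymes called brighter apart. The GC box (GGGCGG), bound by Sp1, was in 15 of 18 (83.3%), against 35.7%. The windows also differed in base composition, with a median GC content of 60.8% for the enzymes and 52.7% for all windows, and the part of this in the motif shares was not tested. The full cAMP response element (CRE, TGACGTCA), to which ATF1 binds, was in 0 of 34 windows, against 1.79% of all. Its short form (TGACG, also contained in the full motif) was in 6 of 18 enzyme windows (33.3%), against 20.8%, and the E-box (CACGTG) in 3 of 18 (16.7%), against 7.15%. In Nsdhl a short CRE adjoins a CCAAT box. These matches are descriptions of sequence and were not read as binding.

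**Figure D4:**
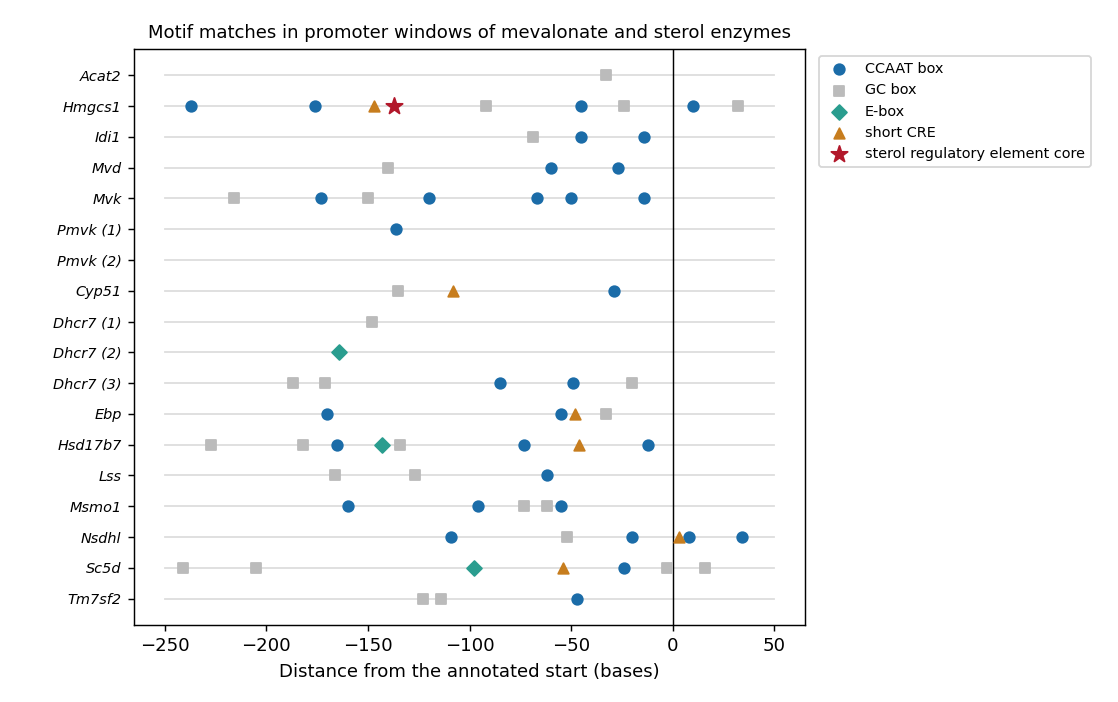
Positions of motif matches (symbols, by motif) along the 18 promoter windows of mevalonate and sterol enzymes, as distance in bases from the annotated start (vertical line). CCAAT boxes stand in 14 windows, and the sterol regulatory element core in that of Hmgcs1 alone.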

How the data were processed

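Biotin-labelled RNA was hybridised to Affymetrix mouse gene arrays, per the labels. The authors deposited 1 table of intensities on a linear scale, 1 value per probe set (28856 in all, none missing). Background correction, summarisation and normalization are not given in the sources used here. Median intensities were 219.8 on the array labelled tumor, 226.7 on high doxycycline and 250.0 on control.

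Probe sets were named through the platform annotation: 21789 had 1 gene symbol, 1621 several and 5446 none, and only those with 1 were used. Entrez numbers of 21698 were found in the RefSeq table of GRCm38.p6, and 0 symbols changed. For a gene with several probe sets (999 genes, 3 of the genes studied) the one brightest over the 3 arrays was used. Differences of log2(intensity + 1) were computed in Python 3.11.15 (pandas 2.3.3), on values as deposited; they understate changes of dim genes. With 1 array a group no precision can be stated, and no test was possible. The calculation was tested on simulated data. The genes and lists were chosen with earlier results of these data known. All studied genes with a value are named, and of the further pathway list the 2 largest differences each way per comparison. The genes of that list under other observations were picked afterwards.

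As alternatives, arrays were set to a common median or quantile-normalized, the brightness filter was dropped or raised to percentile 75, probe sets of a gene were averaged or genes limited to those with 1, and the pseudocount was 64.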

Additional observations from a re-analysis of the deposited data

How the results depend on the processing

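Setting the arrays to a common median adds 0.14 to every difference of high doxycycline minus control, 0.19 to tumor minus control and 0.04 to tumor minus high doxycycline. The median of the mevalonate and sterol enzymes was followed across all alternatives run. For high doxycycline minus control it lay between 1.07 and 1.45, and for tumor minus control between 0.86 and 1.32. For tumor minus high doxycycline it lay between -0.50 and -0.44. The ends of 1.45 and -0.50 (filter at percentile 75) and 0.86 (genes with 1 probe set) rest on fewer than the 17 enzymes. The genes brighter on high doxycycline than on control, 12 as given, were 15 with a common median and 9 under quantile normalization. The share of all bright genes moved as well, from 17.4% as given to 20.9% and 14.6%. Under quantile normalization the median over all 31 genes was 0.11 for high doxycycline minus control and 0.06 for tumor minus control. It was 0.34 and 0.21 as given. Over all bright genes the quantile-normalized medians were -0.02 and -0.01. With a common median, 1 gene instead of 2 was dimmer on high doxycycline than on control (Lpin1 lost), where 7.09% of all bright genes were. Under quantile normalization 7 genes were brighter and 5 dimmer on tumor than on control, where 16.2% and 11.4% of all bright genes were. The filter at percentile 75 leaves fewer genes. With it the median over all studied genes was 0.86 for high doxycycline minus control and -0.34 for tumor minus high doxycycline. Over all bright genes it was 0.27 and 0.00. That of the lipogenesis genes was -0.16 for tumor minus high doxycycline, the same as over genes with 1 probe set. The 16 enzymes dimmer by any amount on tumor than on high doxycycline were 13 with a common median and 14 under quantile normalization, since Hmgcs1 and Fdft1 (and, with a common median, Dhcr7) differ by 0.02 or less. Fewer enzymes enter with the filter at percentile 75 (11 dimmer) and over genes with 1 probe set (14 dimmer). The share of all bright genes dimmer by any amount was not computed under these settings, so these counts have no background beside them. A common median also makes exactly equal values count as brighter on tumor. Quantile normalization and the pseudocount of 64 each moved 3 of 93 differences of single genes by more than the median probe set disagreement, and neither changed the sign of a difference of 2-fold or more. None of the other alternatives moved a single gene's difference by more than that disagreement. Averaging probe sets took Idi1 from 2.64 to 2.93 for high doxycycline minus control. The brightness filter and the limit to genes with 1 probe set cannot change a difference by construction. A common median shifts all differences of a comparison equally, by less than its disagreement. Averaging touches only the 3 studied genes with several probe sets. Signs of differences up to 0.21 in size changed under a common median or quantile normalization. No paired analysis was possible because each group has 1 array, and leaving out a replicate or the array labelled control leaves no comparison but that of tumor with high doxycycline.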

Other observations

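Branches that leave the mevalonate pathway before squalene were not part of the genes studied. The genes named here belong to the further list of 50 and were picked after their values were seen. Each was at least 2-fold brighter than on control, as were 8 (high doxycycline) and 9 (tumor) of 36 bright genes of that list. In each comparison with control 3 genes of the list were dimmer by that margin. Fads3, for example, had 641 on tumor, 970 on high doxycycline and 1522 on control. It was past that margin on tumor (-1.25) but not on high doxycycline (-0.65). Dhdds, which makes dolichol chains, had intensities of 1760 on the array labelled tumor, 1616 on high doxycycline and 783 on control. Pdss2, of coenzyme Q synthesis, had 426, 406 and 160 in that order. As for Ggps1, control was lowest and the other arrays lay close together. Lpcat3, an acyltransferase of membrane phospholipids, had 2697 on tumor, 3308 on high doxycycline and 949 on control, and Nceh1, a cholesteryl ester hydrolase, had 3024, 2720 and 976.

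The deposited intensities share few decimals. Rounded to 2 decimals, 26.1% of the 86568 values in the table have a fractional part of 0.24, 0.58 or 0.91, and so have 28 of the 102 values of the studied genes' 34 probe sets. These parts lie about evenly spaced, and the labels name no step that produced them.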
